A study of Pistia stratiotes with 8 samples.

Results

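In the transcript table of Pistia stratiotes, 109 of 16504 models formed 34 runs of 3 or more neighbours that were all higher in root than in leaf. A model is 1 row of the table, a predicted transcript known only by an identifier such as Pis08011.t1, in which the 5 digits are the model number and the ending is the transcript. The members were chosen by their measured values. A model was called root-biased when its lowest value in the 4 root libraries was at least 10 normalized counts and at least 2 times its highest value in the 4 leaf libraries. This held for 1500 models, and the 109 members are those among them that stood in unbroken runs of at least 3 consecutive numbers. Since leaf and root values made the choice, the levels, folds and counts of the members are given as a description, without a test.

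Pistia stratiotes, water lettuce, is an aquatic plant that floats freely, its leaf rosette in the air and its roots hanging in the water. Each flask of 500 ml held 200 ml of SH medium, was started with 1 mature plant and was kept for 10 days. Plants with 3 to 4 leaves were then taken. A leaf library came from the largest emerged leaves of a flask and a root library from its roots, stripped of tips and laterals, so each library is 1 pool of plants and there were 4 per tissue, all untreated. Tissue is the only difference between the groups that the labels give, and whether a leaf and a root library came from the same flask is not stated. Leaf columns summed to between 7299221 and 8749656 normalized counts, root columns to between 5458151 and 5809933. The lowest values above 0 put the depth at an estimated 5814000 to 6209000 reads per library, so that the minimum of 10 normalized counts stood for about 6.89 to 8.39 reads in leaf and 10.2 to 10.8 in root. In these bulk samples, fewer cells of a type and less RNA per cell cannot be told apart.

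As background, gene models of an annotation are commonly numbered along the assembled sequence, so that consecutive numbers often mark adjacent genes. In plants, adjacent genes with related expression include tandem copies that arose by duplication and clusters of unrelated genes for the steps of 1 biosynthetic route. Roots take up water and mineral nutrients and lack the photosynthetic programme of leaves. How the numbers of this table were assigned is not given in the sources used here, the identifiers are not paired with gene names, and no sequence or position was used. Neighbouring therefore means neighbouring in number, and no function is given to any member.

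Root-biased models lay next to each other more often than they lay at any larger distance examined. They made up 9.09% of all models. Of 1239 root-biased models whose next number was in the table, 196 (15.8%) were followed by another root-biased model. At a distance of 2 numbers the share was 12.7%, and at 3 and 4 numbers it was 11.3% and 11.4%. Over the 40 distances from 11 to 50 numbers it ranged from 7.46% to 10.7%, with a median of 9.37%. The share at distance 1 was thus 1.69 times that median.

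The runs showed the same fall with distance. Reading consecutive numbers gave 34 runs with 109 members, and reading every second number gave 18 runs with 61 members. For steps of 11 to 50 numbers the count of runs was 2 to 14, with a median of 8. A step changes which models are read side by side but not which models are root-biased, so these counts are the reference for the 34. They are a description, since the steps reuse the same 1500 models. Most root-biased models were in no run: 1149 stood alone, 242 in 121 pairs, 87 in 29 runs of 3, 12 in 3 runs of 4 and 10 in 2 runs of 5. A number absent from the table also ends a stretch, and only 1239 of the 1500 had a next number in the table. Reading consecutive rows of the table, whatever their numbers, gave 44 runs with 145 members. Steps of 11 to 50 rows then gave a median of 12 runs and at most 17. At the minimum of 10 the longest run was 5 for consecutive numbers and up to 5 over steps of 11 to 50. Reading every second number gave a longest run of 7. Such a run goes from Pis08009.t1 to Pis08021.t1 and spans the 2 runs of 5, so it is no separate reference. With the minimum at 1 the longest consecutive stretch was 14 models, given below without larger steps beside it.

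**Figure D1:**
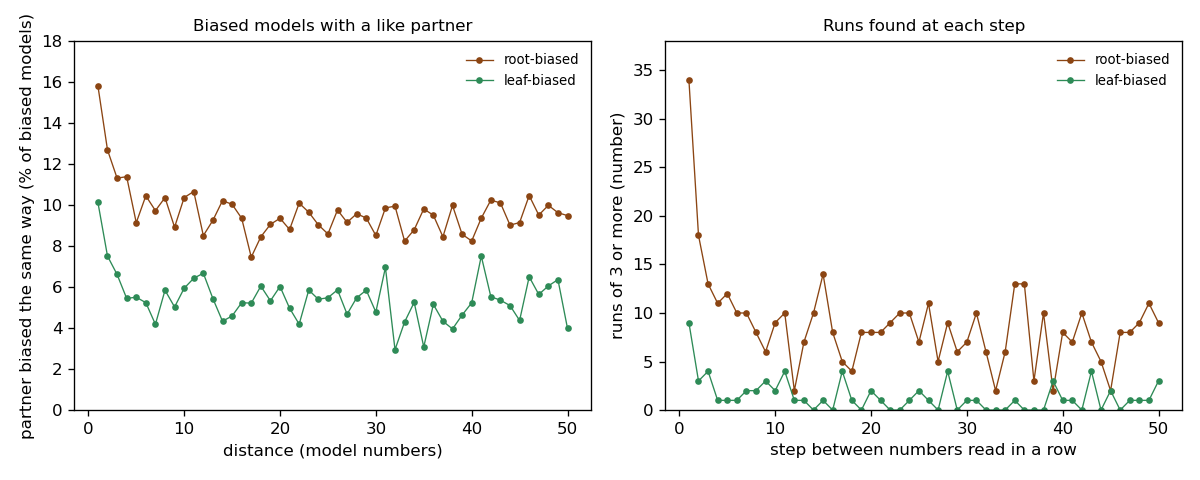
Left, share of root-biased (brown) and leaf-biased (green) models whose partner at a given distance in model numbers was biased the same way, in percent of those with a partner in the table. Right, number of runs of 3 or more when numbers are read in steps of 1 to 50. Both lines are highest at distance or step 1, at 15.8% and 34 runs for root and 10.1% and 9 runs for leaf.

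Leaf-biased models, taken by the mirror of the rule, also lay next to each other, at a lower level. They made up 5.11% of the table (844 models) and formed 9 runs with 28 members, the longest of 4. Of the leaf-biased models with a next number in the table, 10.1% were followed by another, against a median of 5.29% and a highest value of 7.51% over distances of 11 to 50. The share at distance 1 was 1.91 times its median in leaf and 1.69 times in root. Reading leaf-biased models in steps of 11 to 50 gave 0 to 4 runs, with a median of 1. Root-biased models were 1.78 times as many as leaf-biased ones and their runs 3.78 times as many, and both ratios moved with the scale and the fold. Scaling by column totals gave 2106 root-biased and 515 leaf-biased models, with 58 and 5 runs. Quantile normalization gave 24 and 12 runs, and a 1.5-fold rule gave 46 and 22. The difference in clustering between the tissues was not tested.

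The runs were spread over the numbers, with a few close together. Of 21 blocks of 1000 numbers, the last cut short at number 20355, none held more than 3 runs. No run lay in 3 blocks, the short last one among them. The median gap between a run and the next was 441 numbers and the longest 1823. Only 3 gaps were of 20 numbers or fewer. A gap of 1 number parted the 2 runs of 5, and gaps of 8 and 4 numbers parted 3 runs between Pis05995 and Pis06016.

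The 2 longest runs were neighbours of each other. The first ran from Pis08011.t1 to Pis08015.t1 and the other from Pis08017.t2 to Pis08021.t1, with only Pis08016.t1 between them. In the first, leaf signal was all but missing. Pis08011.t1 had 288, 319, 436 and 355 normalized counts in root libraries 1 to 4 (mean 349 ± 64.1, SD, n = 4) and was listed at 0 in all 4 leaf libraries. Pis08012.t1 had 367, 408, 432 and 462 in root, a mean of 417 ± 39.8 (SD, n = 4), with 1.14 in leaf library 2 and 0 in the other leaf libraries. Its leaf value is the only one above 0 among the 20 leaf values of the run, and it is about the worth of 1 read. Pis08013.t1 had 139, 181, 232 and 192 normalized counts in root, and Pis08014.t1 had 115, 120.2, 182 and 158. Pis08015.t1 had 171, 98.4, 140.3 and 127. These 3 were listed at 0 in every leaf library. Library 3 was the highest root library for 3 of the 5 members, library 4 for Pis08012.t1 and library 1 for Pis08015.t1.

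The other run of 5 had low but countable leaf values in several members. Pis08017.t2 had 67.1, 48.0, 46.8 and 94.7 normalized counts in root and 1.45, 4.62, 5.22 and 1.24 in leaf. Pis08018.t1 had 92.0, 103.7, 96.8 and 148 in root and 4.33, 10.3, 5.20 and 0 in leaf, the highest leaf value of either run. Pis08019.t1 had 119.6 and 123 in root libraries 1 and 4, 112 in library 2 and 56.8 in library 3, against at most 2.46 in leaf. Library 3 was low for this model and high for most of the run before it. Pis08020.t1 had 58.4, 45.0, 52.9 and 78.6 in root and was listed at 0 in leaf. Pis08021.t1 had 675, 741, 481 and 932 in root, a mean of 707 ± 186 (SD, n = 4), and at most 1.23 in leaf. All 5 members were highest in root library 4. Leaf and root did not overlap for any of the 10 members, as the rule demands.

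The minimum of 10 counts cut a longer stretch into these 2 runs. With the minimum lowered to 1 and the 2-fold rule kept, 14 consecutive models from Pis08009.t1 to Pis08022.t1 formed a stretch, and no other stretch was longer than 5. Pis08009.t1 was itself root-biased, with 117, 85.3, 120.8 and 66.1 normalized counts in root and 0 throughout leaf. Pis08010.t1, Pis08016.t1 and Pis08022.t1 fell below the minimum: their root values were 5.82 to 14.4, 3.89 to 14.1 and 3.75 to 10.4, and each was listed at 0 in all leaf libraries. At a few reads per library such values carry a large counting error. Of the 56 leaf values in the stretch, 44 were at 0 and the highest was 10.3. Its 14 models summed to 2240.0, 2284, 2305 and 2755 normalized counts in root libraries 1 to 4 and to 7.22, 17.2, 10.4 and 4.93 in leaf libraries 1 to 4.

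**Figure D2:**
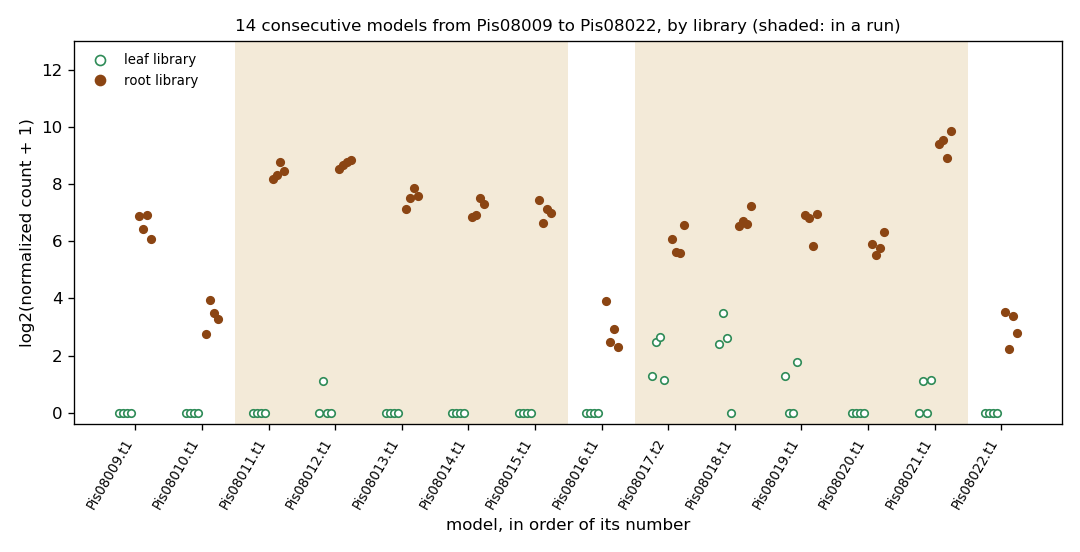
Values of the 14 models from Pis08009.t1 to Pis08022.t1 in each library, as log2(normalized count + 1); open green circles are the 4 leaf libraries and filled brown circles the 4 root libraries, each set in the order 1 to 4. Shaded models are members of the 2 runs of 5. Every root value lies above every leaf value of the same model, as the 2-fold rule that chose them demands.

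Next in length were 3 runs of 4, and the one with the largest sum of mean root values joined 1 member at 0 in leaf with 3 that had leaf signal. Pis16807.t1 had 2437, 1920.1, 2691 and 2255 normalized counts in root and 16.1, 3.62, 21.1 and 3.73 in leaf. Pis16808.t2 had 2213, 2849, 3250.4 and 2803 in root and at most 2.64 in leaf, the largest ratio of lowest root to highest leaf value of any member with leaf signal, 837. Pis16809.t1 had signal in both tissues, at 429.8, 426, 450.0 and 379.7 in root and 138, 88.1, 139.7 and 93.4 in leaf. Its log2 difference was 1.90 (limma standard error 0.18). Pis16810.t1 had 18.2, 19.1, 22.0 and 14.6 in root and was listed at 0 in leaf. All 4 were highest in root library 3. The models on either side, Pis16806.t1 and Pis16811.t1, had signal in both tissues, with overlapping groups: in normalized counts, root values of the first were 984 to 1373 and its leaf values 662 to 2905, and those of the other were 434 to 592 and 416 to 1691.

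In the run whose weakest member had the highest mean root value, 1 member had clear leaf signal and the other members had little or none. Pis19027.t1 had 518, 639, 598 and 419 normalized counts in root and was listed at 0 in leaf. Pis19028.t1 had 1307, 1155, 1502 and 1338 in root and 375, 328, 279 and 262 in leaf, a log2 difference of 2.10 (limma standard error 0.15). Pis19029.t1 had 333, 593, 400.7 and 519 in root and 11.8, 1.22, 3.99 and 0 in leaf. Root exceeded leaf in every pair of libraries, as the rule demands. The least excess was 3.08 times for Pis19028.t1 and 28.1 times for Pis19029.t1.

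Among runs with leaf signal in every member, Pis14855.t1 to Pis14857.t1 had the largest ratio in its least biased member, 13.3. Pis14855.t1 had 35.2, 55.9, 62.6 and 77.6 normalized counts in root and at most 1.38 in leaf. Pis14856.t2 had 229, 317, 231 and 394 in root and 8.91, 15.8, 7.91 and 3.78 in leaf. Pis14857.t1 had 80.2, 57.8, 35.3 and 70.6 in root and 1.46 to 2.65 in leaf. The model before this run, Pis14854.t1, leaned to leaf, with 33.7 to 45.6 in leaf and 5.46 to 14.7 in root.

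**Figure D3:**
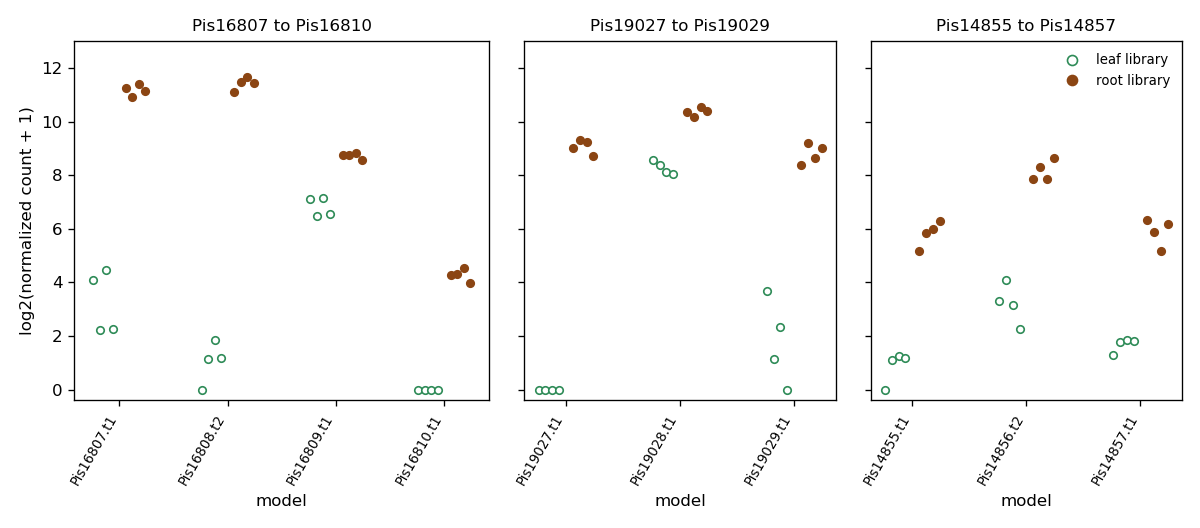
Values by library of the members of 3 further runs, as log2(normalized count + 1), with open green circles for leaf and filled brown circles for root libraries in the order 1 to 4. Pis16809.t1 and Pis19028.t1 have leaf values of 88.1 to 139.7 and 262 to 375 normalized counts, while Pis16810.t1 and Pis19027.t1 beside them are at 0 in all 4 leaf libraries.

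The remaining members were as varied. Mean root values over the 109 members ran from 17.7 to 6638 normalized counts, with 65 members at 100 or more and 12 at 1000 or more. These values are not corrected for transcript length and so do not rank the members by abundance. Of the 109, 17 (15.6%) were listed at 0 in all leaf libraries. They came from 12 runs, but unevenly, since only 2 of these runs held more than 1. The run Pis08011.t1 to Pis08015.t1 held 4 of them and Pis13273.t1 to Pis13275.t1 held 3. Among the 1391 other root-biased models, 126 (9.06%) were at 0 throughout leaf. The rule used these leaf values, and the difference was not tested. For the 92 with leaf signal the ratio of lowest root to highest leaf value had a median of 7.56, with quartiles of 3.10 and 14.5, and 31 were under 4. Just inside the threshold lay Pis09522.t3, with a ratio of 2.01 (418 to 618 normalized counts in root, 62.5 to 208 in leaf), and Pis09887.t1, with 2.06 (21.3 to 47.2 in root, 3.77 to 10.3 in leaf). Just outside it, between root-biased neighbours, lay Pis08357.t3 with a ratio of 1.75 (30.7 to 71.7 in root, 0 to 17.6 in leaf) and Pis14379.t2 with 1.57 (123 to 151 in root, 27.5 to 78.6 in leaf). By limma, 27.2% of 13688 tested models were higher in root at an adjusted p under 0.05, and all 109 members and all 1500 root-biased models were among them. The rule used the same contrast, so nothing is read from that.

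**Figure D4:**
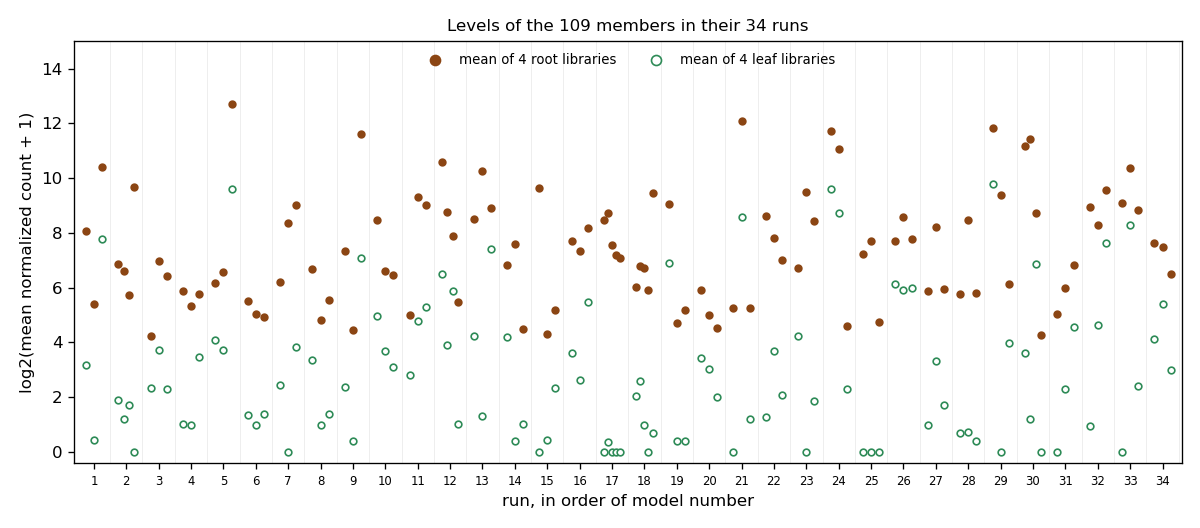
Mean level of each member in its run, as log2(mean normalized count + 1), over the 4 root libraries (filled brown) and the 4 leaf libraries (open green); runs are in order of model number, 1 to 34. In 12 of the runs at least 1 member is at 0 in leaf, and in 1 run, Pis13273.t1 to Pis13275.t1, every member is.

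The members were 0.66% of all models and carried a small share of either pool. Together they made up 0.896%, 0.975%, 1.01% and 0.949% of root libraries 1 to 4 and 0.0651%, 0.0618%, 0.0694% and 0.0796% of leaf libraries 1 to 4. That the root shares exceed the leaf shares follows from the rule. Of the sum of the members' mean root values, not corrected for length, 12.4% came from Pis02085.t1, with 7063, 5530.5, 6823 and 7134 normalized counts in root and 405, 442, 1535 and 684 in leaf. The 5 members with the highest mean root values gave 39.3% of the sum and came from 5 different runs. Most members carried the first transcript number: 97 of 109 ended in .t1 (89.0%), against 89.5% of the other root-biased models and 89.7% of all models. The rule did not use that ending, and its share among the members was close to that in the table.

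Neighbouring members tended to have their highest root value in the same root library. Which root library is highest was not used by the rule. Of 75 pairs of neighbouring members, 34 (45.3%) shared it, compared with 26.0% of the 5761 pairs of members from different runs. Pairs of neighbouring root-biased models outside the runs stood between, at 37.2% of 121 pairs. For neighbouring models that were not root-biased and had at least 10 normalized counts in every root library, it was 27.4% of 6966 pairs. Library 3 was the highest root library for 33.9% of the members and library 1 for 13.8%, while over the 12799 models with at least 10 normalized counts in every root library these shares were 24.6% and 29.7%. Pairs of members from different runs carry the same preference. In leaf the like shares were 32.7% of 55 neighbouring pairs with leaf signal in both members and 26.3% of pairs from different runs, with leaf values mostly of a few reads. Neighbouring root-biased models outside the runs gave 33.3% in leaf and neighbours that were not root-biased 30.4%, so the leaf share was not particular to the members. No test was made, because the pairs share models and the same 4 libraries.

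In 7 of the 34 runs all members were highest in the same root library. This count is given without a reference from models outside the runs, and it was not tested. The examples that follow were chosen after their values were seen. Pis01212.t1 had 81.2, 173, 129.5 and 76.6 normalized counts in root libraries 1 to 4, Pis01213.t1 had 54.1, 182, 91.2 and 62.9, and Pis01214.t1 had 36.7, 95.8, 43.0 and 33.3. Library 2 was the highest and library 3 next in these 3 models. It was also the highest for Pis01215.t1, the last of the run, at 1032, where library 4 came next at 863. The run Pis15713.t1 to Pis15715.t1 was likewise highest in library 2, at 113, 572 and 94.7, whereas the other libraries had at most 44.4, 299.8 and 51.8. In the run that was at 0 throughout leaf, library 1 was the low one: Pis13273.t1 had 52.7 there and 157 to 200.0 in the others, Pis13274.t1 had 87.9 and 190.5 to 292, and Pis13275.t1 had 10.9 and 24.9 to 35.5. Reads that fit alike neighbours equally well could be shared between them, and whether any members are alike in sequence was not tested.

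**Figure D5:**
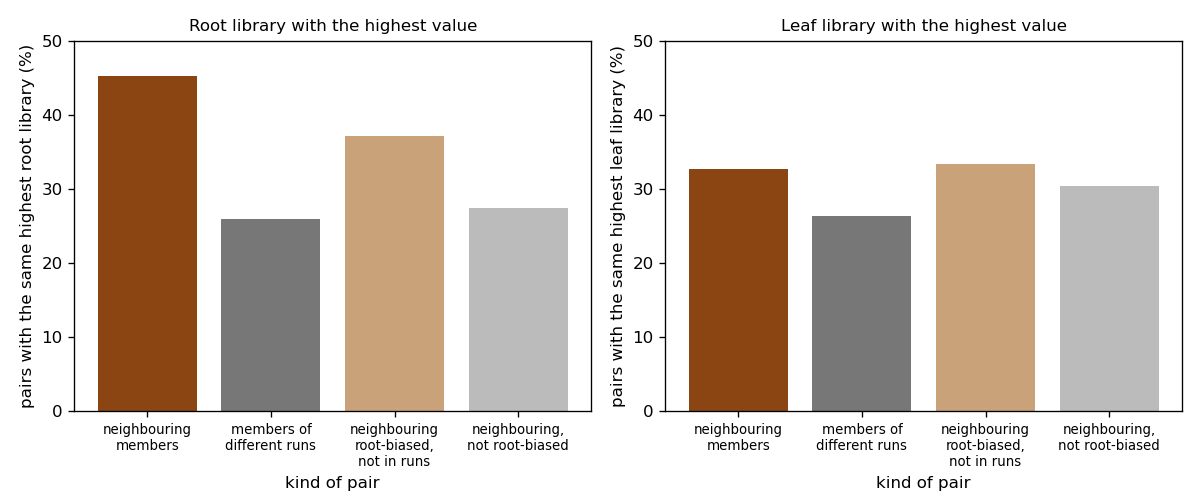
Share of pairs of models whose highest value falls in the same root library (left) or the same leaf library (right), in percent, for 4 kinds of pair; bars have no error because pairs share models and libraries. Neighbouring members stand at 45.3% in root and 32.7% in leaf, pairs from different runs at 26.0% and 26.3%. Neighbouring root-biased models outside the runs stand at 37.2% and 33.3%, and neighbours that are not root-biased at 27.4% and 30.4%.

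Beside the runs, the share of models called higher in root was close to that elsewhere under the settings reported here and above it under others, where both are counted among models that fail the rule. The 34 runs were bordered by 67 numbers, of which 15 had no model in the table. Of the 52 bordering models, 20 fell below the minimum in root and 32 failed the 2-fold rule. Limma could test 37 of them, and 7 (18.9%) were called higher in root, next to 18.3% of all tested models that were not root-biased. Higher in leaf were 13 (35.1%), next to 27.4%. At distances of 2, 3, 4 and 5 numbers from a run, 31.0%, 13.9%, 16.7% and 25% of 29 to 42 tested models that failed the rule were called higher in root, with no steady fall. Among bordering models below the minimum, 5 of 20 passed the 2-fold rule once the minimum was set to 1, against 6.72% of all 3705 models below it. But 3 of these 5, Pis08010.t1, Pis08016.t1 and Pis08022.t1, lie in the single stretch of 14 around the 2 runs of 5. Without the filter on low values, 14 of 52 bordering models (26.9%) were called higher in root, against 18.4% of models that were not root-biased. The share beside the runs was the higher one in all 14 alternative settings, by the most in that one, and by less than the rounding with a replicate block (16.2% in both). It rests on 6 to 16 called models, and the difference was not tested.

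Models that broke up would-be runs were mixed. A root-biased model stood on each side of 88 models that failed the rule. Limma tested 58 of them and called 16 higher in root (27.6%, against 18.3% of all tested models that were not root-biased) and 16 higher in leaf. The 3 close runs between Pis05995 and Pis06016 show such a mixture. Of 22 numbers, 21 had a model, and 10 of these were members. Pis06006.t1 had 1176, 1465, 1796 and 1693 normalized counts in root and 46.9 to 165 in leaf, and Pis06015.t1 had 961 to 1481 in root and 5.88, 0, 0 and 0 in leaf. Of the 11 models between the members, 2 were called higher in root, 1 higher in leaf and 5 neither, and 3 were too low to test. Pis06011.t1, between the members and too low to test, had 22.0, 14.7, 12.04 and 5.04 in leaf and 0 in every root library.

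The number of runs moved with the scale and the thresholds. In all 16 alternative settings for which larger steps were also read, consecutive numbers gave more runs than any step of 11 to 50. Scaling by column totals gave 58 runs in place of 34 and quantile normalization 24. The median log2 difference of root over leaf across tested models was 0.05 as deposited, 0.53 with column totals and -0.05 with quantile normalization. Limma called 3729 models higher and 3334 lower in root as deposited, 6706 and 1827 after scaling by totals, and, with the balance turned, 3521 and 3884 after quantile normalization. A 4-fold rule left 12 runs with 41 members, all of them among the 109.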

How the data were processed

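Leaf and root of Pistia stratiotes were compared in 8 libraries of poly(A) RNA read as 150 bp pairs. Salmon and DESeq2 are named, per the submitters' processing notes, without a role or version. The transcript set is not given in the sources used here. The table deposited by the authors holds a normalized signal, called normalized counts here: 1 of 122848 values above 0 was whole (within 1e-06), and dividing each model by its geometric mean left column medians of 0.998 to 1.02. Read counts were therefore not tested, and the planned count test gave way to its stated substitute. Leaf columns are numbered 1 to 4 but the leaf labels 1, 3, 4 and 5, so each was assigned to its tissue only; library numbers are those of the table. No column went unused (0).

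Runs were found in Python 3.11.15 with pandas 2.3.3 and numpy 2.4.6. The comparison with other orders used fixed steps through the numbers, with no reshuffling. Limma 3.58.1 in R 4.3.3 was fitted across all genes that reached 10 normalized counts in 4 or more libraries (3 with 1 left out), on log2(value + 1) with a trended variance and Benjamini-Hochberg adjustment at 0.05. This scale understates differences of low models. Both steps were tested on simulated data. For want of model lengths, values were summed and used to choose runs without length correction, and the planned level difference between neighbours is not given. Named models were those of the 3 longest runs, of the run with the highest weakest member, of the run with the largest least ratio, and those nearest the threshold. Other models with values (the largest contributor, the close runs, those beside runs, and runs alike across root libraries or at 0 throughout leaf) were chosen after their values were seen. Members, lists and named-model rule were chosen with earlier results of these data known.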

Additional observations from a re-analysis of the deposited data

Results flagged for a closer look

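In 4 of 43 groups of 4 values examined for the named models and the members' shares, 1 library stood apart by the Dixon test on the log2(normalized count + 1) scale (95% critical value). Chance flags about 1 in 20 groups of untied values. A group with 1 value above 0 and the rest at 0, as for Pis08012.t1 in leaf, is flagged whatever that value. In root, Pis08019.t1 had 56.8 normalized counts in library 3, while the other root libraries had 112 to 123. The other 3 were leaf values of a few reads at most. Pis08012.t1 had 1.14 in leaf library 2 and 0 elsewhere in leaf, Pis14855.t1 had 0 in leaf library 1 against 1.18 to 1.38, and Pis14857.t1 had 1.46 in leaf library 1 against 2.44 to 2.65.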

How the results depend on the processing

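Of the alternative values computed, 92 stayed alike and 24 moved. Quantile normalization turned the sign of the median log2 difference across tested models (from 0.05 to -0.05) and the balance of calls (3521 higher and 3884 lower in root, from 3729 and 3334). A count was taken as alike within 1.5 times and a share within its 95% Wilson interval, which treats models as independent. The share of root-biased models followed by another (15.8%) exceeded every share at distances of 11 to 50 in all 16 alternatives with such a reference, and consecutive numbers gave more runs than any such step in all 16. The other 2, on the least length of a run, have none. With a 1.5-fold rule the share was 18.3%, and 22 leaf-biased runs were found. With 4-fold there were 12 runs, 41 members, a share of 13.2% and 4 leaf-biased runs. A minimum of 1 gave 166 members, a longest run of 14 and a share of 19.4%, and a minimum of 50 gave 15 runs, 47 members and 10.1%. Column totals gave 58 runs, 187 members, 19.7%, 5 leaf-biased runs, 6706 models higher in root and 16 bordering models higher in root (43.2%, against 42.4% of models that were not root-biased). With no filter on low values, 14 bordering models were higher in root. Runs of at least 2 numbered 155 with 351 members, and of at least 4, 5 with 22. The causes of these moves were not tested beyond the settings themselves.

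With single libraries left out, 109 to 132 members were found; dropping a library only relaxes the rule, so the 109 stay. Limma's test against 2-fold, added after seeing the data, gave 33 runs and shared 100 members. The share of neighbouring members with the same highest root library was 46.7% to 58.7% with single root libraries left out, where pairs from different runs gave 33.03% to 37.4%. The column numbers as a replicate block gave 3474 models higher in root, 3418 of them shared with the 3729 without it. Same-numbered libraries correlated at -0.02 to 0.03 in their deviations, and 0 of 8 libraries correlated best with its own number. Since leaf column numbers need not match the leaf labels, neither result can decide whether leaf and root libraries were paired. At this depth a leaf value of 0 to 3 normalized counts is a few reads at most.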
